A study of Homo sapiens with 6 samples.

Results

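The genes described here are the subunits and regulators of the constitutive proteasome, taken as the protein-coding rows of the count table whose symbol runs from PSMA to PSMF with a number, without the immunoproteasome subunits PSMB8, PSMB9 and PSMB10. The rule found 42 rows with 41 names among 48162 genes. They are 9 PSMA rows (the alpha ring), 8 PSMB rows (the beta ring), 6 PSMC rows (the ATPase ring), 14 PSMD rows (the other regulatory particle subunits and 3 chaperones of its base) and 5 rows for the activators PSME1 to PSME4 and the inhibitor PSMF1. Of these, 39 had enough counts to be tested. The other 3 were a second PSMA1 row with 0 counts, PSMA8, the testis form of an alpha subunit, with 0 counts, and PSMB11, the thymus form of a beta subunit, with 1 count in each of 2 libraries.

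The cells were HEK293, an established human embryonic kidney line, and all of them received Flag-tagged Ago2, the protein that holds small RNAs in the silencing complex. One group of 3 libraries also received a mimic of microRNA-219, and the other group of 3 libraries a negative control mimic. The Flag tag was used to precipitate Ago2, and the RNA that came down with it was sequenced, with 1 library of each group from 22 August, 5 September and 18 September. Totals ran from 20233819 to 34408699 counts per library, and levels are given as CPM, counts scaled to a common library size.

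The proteasome breaks down proteins that carry ubiquitin chains. Its core particle is a barrel of stacked rings: outer alpha rings that gate the entry and inner beta rings, in which PSMB5, PSMB6 and PSMB7 carry the cutting sites. The regulatory particle has a base of PSMC ATPases and large scaffold subunits that unfold the substrate, and a lid in which PSMD14 cuts the ubiquitin chain off. The subunits are needed in set ratios, and the transcription factor NFE2L1 is known to raise their genes together when the proteasome is inhibited, through the antioxidant response element. Interferon is known to induce PSMB8, PSMB9, PSMB10, PSME1 and PSME2.

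Mature strands of microRNA-219 from a locus on chromosome 9 are shown because the mimic defines the groups. The labels do not say which strand the mimic carries, or whether it is among those shown. The sequences come from RefSeq (GRCh38.p14), and the capitals mark the seed, bases 2 to 8, which differs between the strands.
hsa-miR-219a-5p: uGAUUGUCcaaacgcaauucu
hsa-miR-219a-2-3p: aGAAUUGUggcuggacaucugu

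Promoter windows of RefSeq (GRCh38.p14; 250 bases before to 50 after the start) were matched for 36 of the 41 names, with 43 windows. PSMA7, PSMB1, PSMB6, PSMB7 and PSMD4 had no entry. The antioxidant response element core, TGACNNNGC on either strand, was in 27.9% of the member windows and in 13.3% of all 35116 windows, and 12 members had it: PSMA4, PSMB3, PSMC4, PSMC5, PSMD1, PSMD3, PSMD5, PSMD9, PSMD12, PSME1, PSME2 and PSME4. The CCAAT box was in 41.9% of the member windows and 34.6% of all windows. The interferon-stimulated response element core, GAAA, 2 free bases and GAAA on either strand, was in the windows of 4 members, PSMA4, PSMB4, PSME1 and PSME2, or 9.30% of the member windows against 3.57% of all windows. The gamma-activated site core, TTCNNNGAA, was in 16.3% of the member windows and 7.66% of all windows. Each motif was counted by itself, so matches may overlap, and a match is a description of letters.

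The following windows are shown because PSMB3 had the lowest p of the beta ring and PSME1 and PSME2 are the members known to respond to interferon. Capitals mark the antioxidant response element core in PSMB3 (chr17:38752491-38752790, plus strand) and the interferon-stimulated response element core in PSME1 (chr14:24135944-24136243, plus strand) and PSME2 (chr14:24146561-24146860, minus strand), all in GRCh38.p14.
PSMB3: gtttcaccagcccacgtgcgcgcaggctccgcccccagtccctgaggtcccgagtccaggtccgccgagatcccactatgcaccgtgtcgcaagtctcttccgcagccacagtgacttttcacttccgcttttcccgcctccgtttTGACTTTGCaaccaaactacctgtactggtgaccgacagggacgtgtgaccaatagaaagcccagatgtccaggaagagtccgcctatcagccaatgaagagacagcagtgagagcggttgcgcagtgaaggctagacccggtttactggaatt
PSME1: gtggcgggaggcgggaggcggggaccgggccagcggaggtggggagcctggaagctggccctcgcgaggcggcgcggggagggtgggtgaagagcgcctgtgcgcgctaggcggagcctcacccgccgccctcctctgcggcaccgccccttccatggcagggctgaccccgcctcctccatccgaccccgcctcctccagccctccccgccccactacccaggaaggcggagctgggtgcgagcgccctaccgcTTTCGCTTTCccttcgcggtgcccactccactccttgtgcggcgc
PSME2: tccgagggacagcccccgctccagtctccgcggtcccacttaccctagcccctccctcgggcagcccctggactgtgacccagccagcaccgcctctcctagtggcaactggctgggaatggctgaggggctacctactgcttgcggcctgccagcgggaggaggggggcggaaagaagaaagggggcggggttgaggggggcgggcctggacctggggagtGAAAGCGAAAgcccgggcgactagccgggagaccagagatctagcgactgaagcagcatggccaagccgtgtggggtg

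Libraries were checked before the members were compared. All 8 of the HEK293 marker genes were tested and none was called between the groups. Of all genes 0.0% were called, so this lack of calls is not particular to the markers. Of 12 markers of other cell types, 11 were in the table under the listed name and 7 were tested. The summed level of the 11 was 71.4 to 76.4 CPM in mimic libraries, against 74.9 to 766 CPM in control libraries. The high value came from HBB, a haemoglobin chain, which had 23319 counts in control cells of 5 September, while no other library had more than 2. Outside HBB, most of the sum came from MBP and COL1A1, listed for oligodendrocytes and fibroblasts and present in every library. In date order, MBP had 1486, 1269 and 909 counts in mimic libraries, against 991, 1411 and 787 in control libraries. COL1A1 had 687, 476 and 320 counts in mimic libraries, against 399, 775 and 299 in control libraries. Of the leukocyte markers, CD3E and PTPRC had at most 4 counts in any library, and CD14 had 30, 22 and 19 counts in mimic libraries, against 29, 34 and 22 in control libraries. IGHA1, an antibody chain, had 0, 146 and 135 counts in mimic libraries, against 422, 0 and 257 in control libraries, in date order, so it was at 0 in the mimic library of 22 August and the control library of 5 September. PIGR, an antibody transporter of gut epithelium, had 3, 51 and 112 counts in mimic libraries, against 277, 1 and 130 in control libraries, and FABP1, a fatty acid binding protein of gut and liver, had 0, 45 and 51 counts in mimic libraries, against 85, 0 and 67 in control libraries. Input RNA was not used here, so the amount of a transcript in the cells and its binding to Ago2 cannot be told apart in these levels.

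Proteasome transcripts lay slightly lower with the microRNA-219 mimic than with the control mimic, the beta ring most, and no member passed the test over all genes. Of the 39 tested members, 34 had a log2 fold change below 0, against 49.7% of all tested genes, and their median was −0.15, against 0.00 for all 16233 genes. The medians were −0.18 for PSMA, −0.30 for PSMB, −0.15 for PSMC, −0.12 for PSMD and −0.13 for PSME with PSMF1; differences between these groups were not tested. In edgeR's quasi-likelihood test with Benjamini-Hochberg adjustment, 0 of 39 members were called (adjusted p = 0.999 for each), and 0.0% of all genes were called. At an unadjusted p under 0.05, 3 members were lower with the mimic and none higher, against 1.26% of all genes lower; over all genes 488 had such a p in either direction. DESeq2 called 5 genes and no member. With the collection date as a block, 6 members had an unadjusted p under 0.05, against 5.75% of all genes, and none was called.

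**Figure D1:**
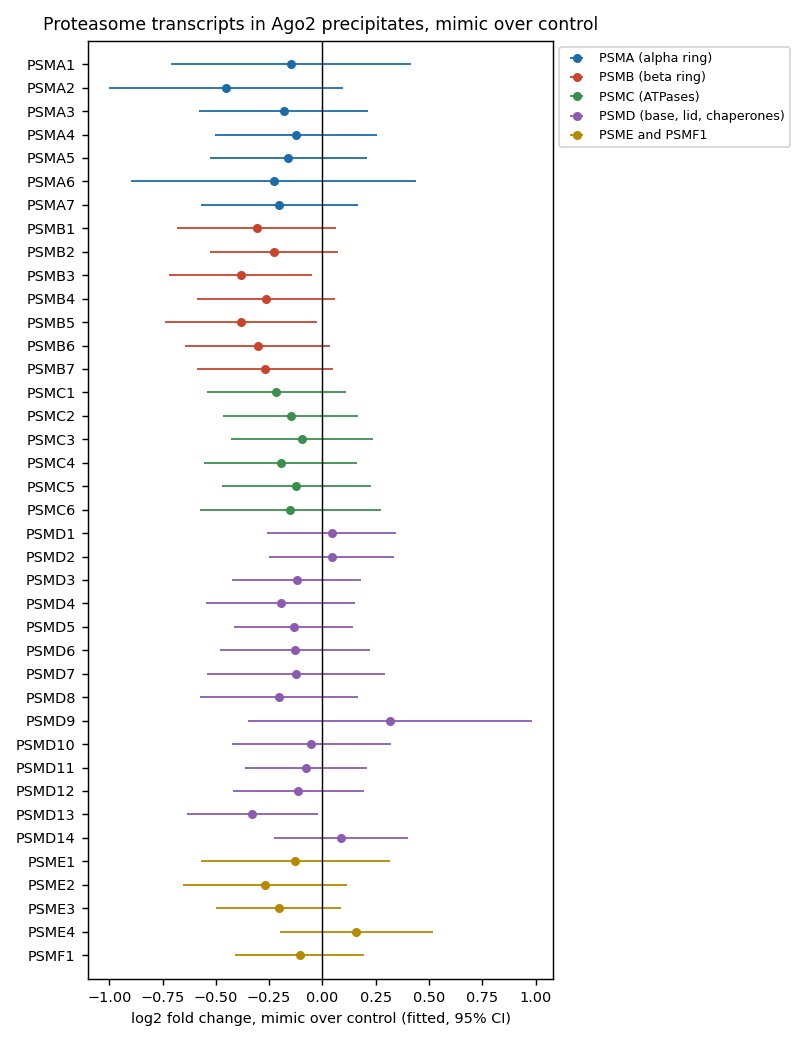
Fitted log2 fold change of the 39 tested members, mimic over control, with 95% confidence intervals on the horizontal axis and members grouped by role down the page. All 7 PSMA, 7 PSMB and 6 PSMC points lie below 0, and the intervals of PSMB3, PSMB5 and PSMD13 do not reach 0.

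The difference was not the same on every date. The summed level of the tested members was 5198, 5196 and 5631 CPM in mimic libraries, against 6342, 5125 and 6390 CPM in control libraries, in date order. The mimic libraries and the control library of 5 September were low, and the other control libraries were high, so the groups overlapped. Like this sum, IGHA1, PIGR and FABP1 were lower in the control library of 5 September, where they were near 0, than in the other control libraries. In mimic libraries each was near 0 on 22 August and had 45 or more counts on 5 September, while the sums were nearly equal. On 18 September, with the highest mimic sum, IGHA1, PIGR and FABP1 had 135, 112 and 51 counts, against 146, 51 and 45 on 5 September. Other markers of that list went another way. HBB and HBA1, another haemoglobin chain, were highest in the control library of 5 September, and ALB had 19, 25 and 11 counts in control libraries. The part of these transcripts in the result was not tested. Members took 0.478, 0.531 and 0.597% of all counts in mimic libraries, against 0.619, 0.504 and 0.665% in control libraries. The median log2 ratio of mimic over control over the 39 members was −0.40 on 22 August, 0.04 on 5 September and −0.17 on 18 September, against 0.02, 0.00 and −0.01 for all genes. Without the control library of 5 September the median log2 fold change of the members was −0.28, and 12 of 39 members had an unadjusted p under 0.05, against 7.56% of all genes in that fit. Without both libraries of 22 August the median was −0.06, and 0 members had such a p, against 1.59% of all genes. The 3 libraries of a group are 1 per date and the labels do not say whether dates were separate cultures, so p-values measure only sample-to-sample spread, which may be technical.

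**Figure D2:**
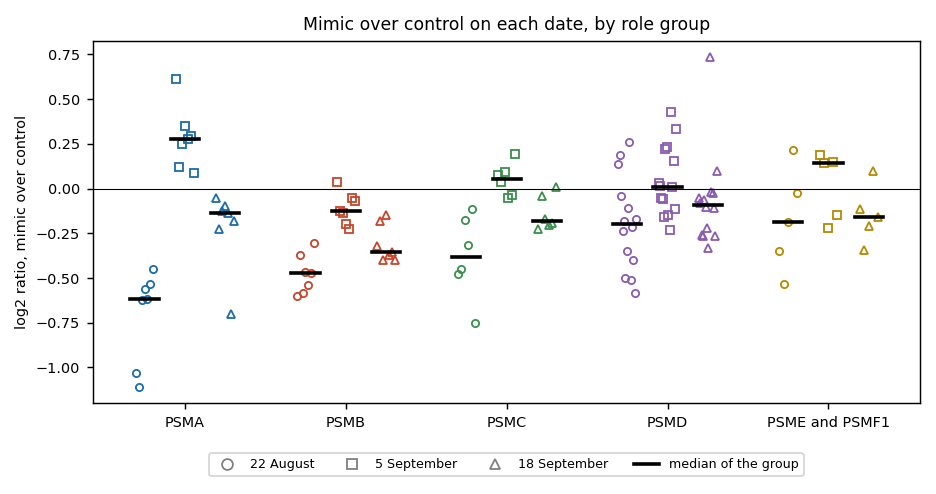
Log2 ratio of mimic over control for each tested member, by role group and date (circles 22 August, squares 5 September, triangles 18 September), with black bars at the group medians. PSMA medians are −0.62, 0.28 and −0.14 in date order, and PSMB medians are −0.47, −0.12 and −0.36.

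The alpha ring differed in direction between dates. All 7 tested PSMA members were below 0 on 22 August, 0 of 7 on 5 September and 7 of 7 on 18 September, with medians of −0.62, 0.28 and −0.14. PSMA4, an alpha subunit shown for the highest CPM of the group, had 221, 265 and 268 CPM in mimic libraries, against 326, 208 and 286 CPM in control libraries, in date order (log2 fold change −0.12, SE 0.18, unadjusted p = 0.495). The control libraries held both its highest and its lowest value, and the groups overlapped. Without both libraries of 22 August the PSMA median was 0.04, on the other side of 0. PSMA2, an alpha subunit with the lowest p of the group, had 3.66, 4.48 and 4.86 CPM in mimic libraries, against 7.98, 4.11 and 5.70 CPM in control libraries (log2 fold change −0.45, SE 0.25, unadjusted p = 0.099). Its control value of 22 August was the highest and that of 5 September lay within the mimic range. PSMA7, another alpha subunit, averaged 132 ± 10.1 CPM with mimic, against 152 ± 33.6 CPM with control (SD, n = 3 each). PSMA3 and PSMA5, also of the alpha ring, had log2 fold changes of −0.18 and −0.16.

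Of the 5 role groups, only the beta ring had a median below 0 on all dates. Smaller sets had this too: the 3 base assembly chaperones within PSMD (−0.18, −0.16 and −0.02 in date order) and the listed regulators of proteasome genes (−0.18, −0.15 and −0.05). The list of p97 and its cofactors had −0.01, −0.04 and −0.02. All 7 tested PSMB members were below 0 in the fit, their medians by date were −0.47, −0.12 and −0.36, and 6 of 7 (all but PSMB1) had mimic below control on every date, as had 15 of all 39 members and 14.4% of all genes. Their summed level was 931, 942 and 1101 CPM in mimic libraries, against 1299, 1011 and 1356 CPM in control libraries. The highest mimic sum, that of 18 September, lay above the control sum of 5 September, so the groups overlapped. PSMB3, a non-catalytic beta subunit (ENSG00000108294, chr17:36908989-36920484 of hg19), had 109, 111 and 127 CPM in mimic libraries, against 163, 122 and 167 CPM in control libraries. The groups met at the mimic library of 18 September and the control library of 5 September. It had 0.766 times the control level with the mimic (log2 fold change −0.38, SE 0.15, unadjusted p = 0.028; 95% CI −0.72 to −0.05). PSMB3 is the beta subunit whose promoter window is shown above with an antioxidant response element core. The part of that motif in its level was not tested.

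PSMB5, which carries the chymotrypsin-like site and is the main target of the inhibitor bortezomib, had 107, 109 and 138 CPM in mimic libraries, against 155, 127 and 179 CPM in control libraries (log2 fold change −0.38, SE 0.16, unadjusted p = 0.0374). Its mimic value of 18 September lay above its control value of 5 September. PSMB6, which carries the caspase-like site, had 133, 136 and 156 CPM in mimic libraries, against 185, 141 and 199 CPM in control libraries (log2 fold change −0.30, SE 0.16, unadjusted p = 0.0739). PSMB7, which carries the trypsin-like site, had 104, 96.6 and 105 CPM in mimic libraries, against 129, 102 and 139 CPM in control libraries (log2 fold change −0.27, SE 0.15, unadjusted p = 0.09). All 3 catalytic subunits were thus lower with the mimic on each date, with the smallest gap of each on 5 September.

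PSMB1, a non-catalytic subunit shown for the highest CPM of the ring, had 172, 189 and 218.9 CPM in mimic libraries, against 260.1, 184 and 274 CPM in control libraries (log2 fold change −0.31, SE 0.17, unadjusted p = 0.0971). On 5 September its mimic value was slightly the higher. PSMB2, also non-catalytic, had 170.4, 163 and 182 CPM in mimic libraries, against 220.1, 177 and 207 CPM in control libraries (log2 fold change −0.23, SE 0.14, unadjusted p = 0.122). PSMB4, the last non-catalytic subunit of the ring, had 135, 138 and 173 CPM in mimic libraries, against 187, 158 and 192 CPM in control libraries (log2 fold change −0.27, SE 0.15, unadjusted p = 0.1). For both, the highest mimic value, that of 18 September, passed the control value of 5 September.

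**Figure D3:**
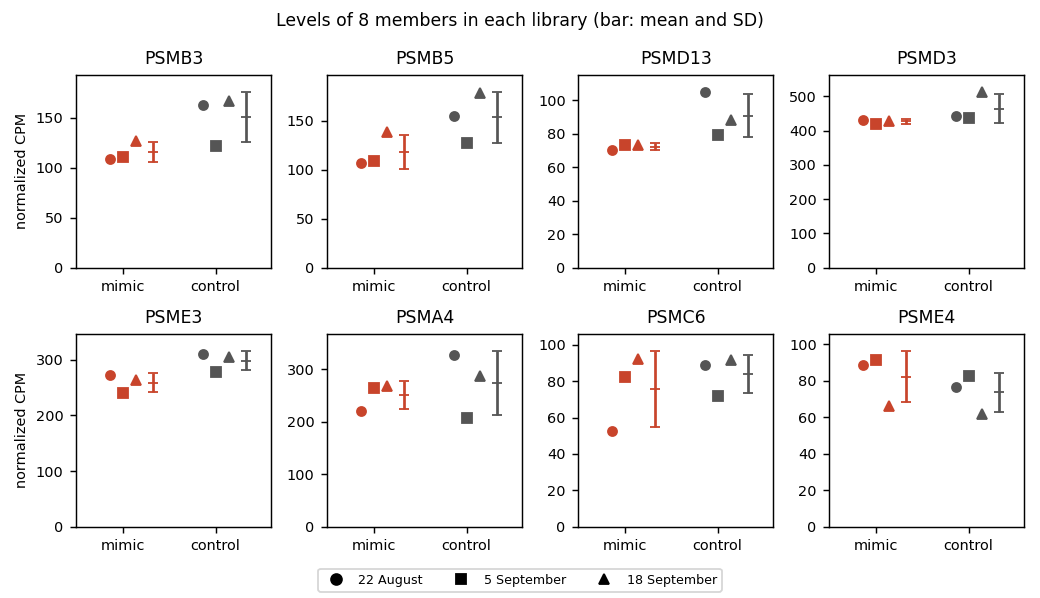
Normalized CPM of 8 members in each library, mimic on the left and control on the right of each panel, with symbols for the dates and the mean and SD beside the points; each axis starts at 0. PSMD13, PSMD3 and PSME3 have no overlap between groups, and in PSMB3, PSMB5 and PSMA4 the control value of 5 September lies within or below the mimic range.

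The ATPases also had values below 0. All 6 PSMC members were below 0 in the fit, with medians by date of −0.38, 0.06 and −0.18. PSMC4, an ATPase shown for the highest CPM of the ring, had 199, 192 and 245 CPM in mimic libraries, against 247, 199 and 283 CPM in control libraries (log2 fold change −0.20, SE 0.16, unadjusted p = 0.254). PSMC1, the ATPase with the lowest p of the ring, had 155, 176 and 187 CPM in mimic libraries, against 215, 167 and 218.9 CPM in control libraries (log2 fold change −0.22, SE 0.15, unadjusted p = 0.178). In both, the control value of 5 September lay within the mimic range. PSMC6, an ATPase of the same ring, had 52.6, 82.4 and 92.1 CPM in mimic libraries, against 88.6, 71.9 and 91.5 CPM in control libraries (log2 fold change −0.15, SE 0.19, unadjusted p = 0.453). Its low value was the mimic library of 22 August alone, and without both libraries of that date its log2 fold change was 0.096. PSMC3 averaged 169 ± 13.2 CPM with mimic, against 180.3 ± 29.9 CPM with control (SD, n = 3 each), PSMC2 had a log2 fold change of −0.15 and PSMC5 one of −0.12.

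In the regulatory particle no PSMD member passed the test. PSMD1 and PSMD2, the large scaffolds of the base that hold substrate receptors, had log2 fold changes of 0.04 (95% CI −0.26 to 0.34) and 0.04 (95% CI −0.25 to 0.34). PSMD1 had 263, 225 and 213 CPM in mimic libraries, against 239, 220.1 and 221 CPM in control libraries. PSMD4, a ubiquitin receptor of the base, had 184, 148 and 170.4 CPM in mimic libraries, against 217, 154 and 205 CPM in control libraries (log2 fold change −0.20, SE 0.16, unadjusted p = 0.244). Its groups overlapped, with the 5 September value low in both groups. Of the 8 lid subunits, 7 were below 0, with a median of −0.12.

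PSMD3, a lid subunit shown for the highest CPM of the group, had 432, 420.1 and 428 CPM in mimic libraries, against 444, 436 and 513 CPM in control libraries. Every mimic value lay below every control value, and the difference was small (log2 fold change −0.12, SE 0.14, unadjusted p = 0.4). PSMD13, also a lid subunit (ENSG00000185627, chr11:236546-252983 of hg19), had 69.9, 73.5 and 73.3 CPM in mimic libraries, against 105, 79.4 and 88.0 CPM in control libraries. Its mimic values lay close together and below every control value, at 0.796 times the control level (log2 fold change −0.33, SE 0.14, unadjusted p = 0.0376). PSMD14, the deubiquitinase of the lid, had 116, 135 and 142 CPM in mimic libraries, against 131, 107 and 132 CPM in control libraries, with a log2 fold change of 0.09 and overlapping groups. The lid subunits PSMD6, PSMD7, PSMD8, PSMD11 and PSMD12 had log2 fold changes of −0.20 to −0.08. Of the base assembly chaperones, PSMD5 had a log2 fold change of −0.13, PSMD10 one of −0.05, and PSMD9, with 50, 34 and 54 counts in mimic libraries, against 36, 48 and 31 in control libraries, one of 0.31.

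The activators did not go one way. PSME3, the nuclear activator that works without ubiquitin, had 272, 239 and 264 CPM in mimic libraries, against 309.8, 279 and 306 CPM in control libraries. Its groups did not overlap, and its log2 ratios by date, −0.19, −0.22 and −0.21, were nearly equal (log2 fold change −0.20, SE 0.13, unadjusted p = 0.153). With PSMD3 and PSMD13 it made 3 of 39 members with every mimic value below every control value, against 3.84% of all genes. PSME4, an activator with a role in histone breakdown in the testis and after DNA damage, had 88.9, 91.5 and 66.2 CPM in mimic libraries, against 76.4, 82.6 and 61.9 CPM in control libraries. It was the only member that was higher with the mimic on all 3 dates, with log2 ratios of 0.22, 0.15 and 0.10 (log2 fold change 0.16, SE 0.16, unadjusted p = 0.352), and its groups overlapped because both values of 18 September were low. PSMF1, an inhibitor of the core particle, averaged 136 ± 14.6 CPM with mimic, against 147 ± 11.01 CPM with control (SD, n = 3 each; log2 fold change −0.11).

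PSME1 and PSME2 form the activator that interferon induces, and their promoter windows shown above hold the interferon-stimulated response element core. PSME1 had 73.7, 57.2 and 71.3 CPM in mimic libraries, against 93.8, 50.1 and 77.0 CPM in control libraries (log2 fold change −0.13, SE 0.20, unadjusted p = 0.546). PSME2 had 35.7, 36.5 and 41.0 CPM in mimic libraries, against 51.6, 33 and 52.0 CPM in control libraries (log2 fold change −0.27, SE 0.18, unadjusted p = 0.152). On 5 September both were higher with the mimic, and on the other dates lower.

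The interferon-linked subunits were then compared by date, since most of the listed interferon-induced genes were higher on 22 August in both groups. Of 16 listed genes, 12 were called for 22 August in a model with terms for date and mimic, all higher, against 0.339% of all genes. IFIT1, an RNA-binding antiviral protein, had 158, 22.6 and 16.4 CPM in mimic libraries, against 187, 12.7 and 15.7 CPM in control libraries (log2 difference 3.38, SE 0.20, adjusted p = 0.000643). PSME1 was higher on 22 August than on the mean of the other dates by less and was not called (log2 difference 0.40, SE 0.13, adjusted p = 0.617), nor was PSME2 (log2 difference 0.10, SE 0.15, adjusted p = 0.943). A rise on that date was not limited to interferon-linked genes. All 8 HEK293 markers were also above 0 for 22 August, with a median log2 difference of 0.29, and 0 were called. Without the mimic library of 22 August PSME1 was called (log2 difference 0.59, adjusted p = 0.029), in a fit with 1 residual degree of freedom in which that date has a lone library, assumed to vary like the others. PSMB9, an immunoproteasome subunit, had only 39, 13 and 21 counts in mimic libraries, against 41, 11 and 20 in control libraries, and was not called (log2 difference 1.27, SE 0.30, adjusted p = 0.32); it was called with no filter on low counts (adjusted p = 0.028) and without the mimic library of 5 September (adjusted p = 0.044). PSMB8, another such subunit, had 8, 11 and 10 counts in mimic libraries, against 18, 7 and 8 in control libraries (log2 difference 0.45, SE 0.53, adjusted p = 0.927). PSMB10, the last of them, had 22, 17 and 7 counts in mimic libraries, against 25, 19 and 11 in control libraries (log2 difference 0.82, SE 0.34, adjusted p = 0.718). Per kilobase, PSMB9 stood at 0.346 ± 0.167 CPM per kb with mimic, against 0.362 ± 0.243 CPM per kb with control. PSMB6, the constitutive subunit it replaces, stood at 168 ± 14.4 CPM per kb with mimic, against 208 ± 35.8 CPM per kb with control. PSMB9 overlaps TAP1 and PSMB8 on the opposite strand of hg19, and the part of this overlap in its low counts was not tested.

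**Figure D4:**
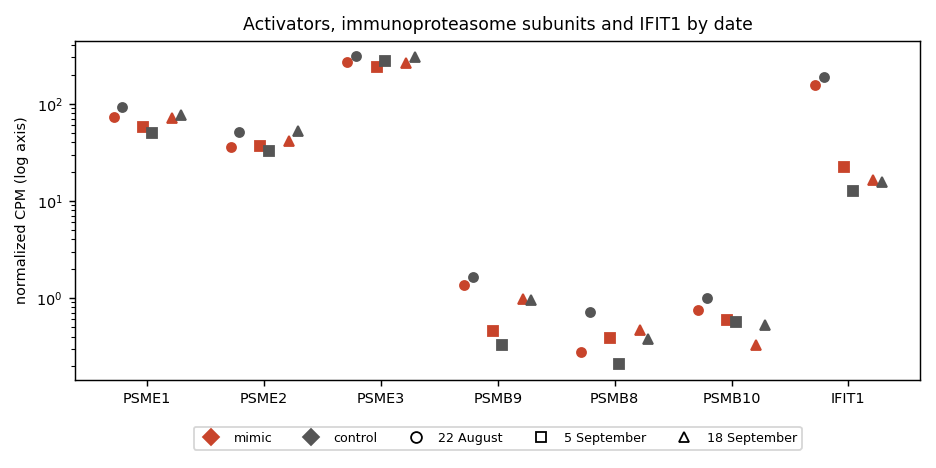
Normalized CPM on a log axis of the activators PSME1, PSME2 and PSME3, the immunoproteasome subunits and IFIT1, by date, with mimic in red to the left of control in grey. IFIT1 was high on 22 August in both groups, PSME1 and PSME2 lie between the immunoproteasome subunits and PSME3, and the immunoproteasome subunits lie below 2 CPM.

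No member was called for any date against the others. For 22 August 0.339% of all genes were called, for 5 September 0.0% and for 18 September 0.0493%, and the smallest adjusted p of a tested member was 0.617, 0.358 and 0.214 for these dates. At an unadjusted p under 0.05 there were 1, 9 and 6 members for these dates, in either direction, against 6.89, 12.9 and 16.4% of all genes, so the members' share was not above that of all genes on 22 August and 18 September. The largest member differences for 22 August were those of PSME1, of PSMC6 (log2 difference −0.28, SE 0.20, adjusted p = 0.856), of PSMD4 (log2 difference 0.25, SE 0.11, adjusted p = 0.718) and of PSMC3 (log2 difference 0.25, SE 0.11, adjusted p = 0.749). On 5 September, 33 of 39 members were below the mean of the other dates, with a median log2 difference of −0.21 against −0.01 for all genes, and 8 were lower at an unadjusted p under 0.05, against 5.98% of all genes. On 18 September, 31 of 39 were above it, with a median of 0.16, against 8271 of 16233 genes and a median of 0.01. With total counts only, the medians for that date were 0.26 for members and 0.11 for all genes. Counts of called members changed when single libraries were left out. For 5 September, 14 of 39 members were called without the mimic library of 22 August, where 14.2% of all genes were called, 4 without the control library of 22 August (6.7% of all genes) and 1 without the mimic library of 5 September (1.86%). For 18 September, 19 were called without the control library of 22 August, where 22.6% of all genes were called, 3 without the mimic library of 22 August (7.47% of all genes) and 1 without the mimic library of 5 September (5.12%). For 22 August, 1 was called without either library of that date, PSME1 without the mimic one (1.6% of all genes) and PSMC6 without the control one (8.21%). Each of these fits has 1 residual degree of freedom.

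Levels per kilobase of gene model spread widely over the members. PSMB6 was highest, at 168 ± 14.4 CPM per kb with mimic, against 208 ± 35.8 CPM per kb with control (SD, n = 3 each). PSMB3 followed, at 149 ± 12.9 CPM per kb with mimic, against 195 ± 32.6 CPM per kb with control, so the spreads of these neighbours in the order overlapped. PSMA7 stood at 129 ± 9.86 CPM per kb with mimic, against 148 ± 32.8 CPM per kb with control and PSMC4 at 131 ± 17.8 CPM per kb with mimic, against 149.8 ± 25.8 CPM per kb with control, and their spreads overlapped too. Of the activators, PSME3 stood at 82.2 ± 5.42 CPM per kb with mimic, against 94.8 ± 5.40 CPM per kb with control and PSME4 at 11.6 ± 1.96 CPM per kb with mimic, against 10.4 ± 1.5 CPM per kb with control, so PSME3 was the higher in every group by more than the spread.

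The 4 tested members under 10 mean CPM, PSMA1, PSMA2, PSMA6 and PSMD9, each overlapped another protein-coding row on the same strand of hg19. PSMA1, an alpha subunit, overlaps COPB1 and the second PSMA1 row; PSMA2 overlaps DKFZP686D09174; PSMA6 overlaps KIAA0391; PSMD9 overlaps WDR66 and RP11-87C12.2. PSMA6, an alpha subunit that is as necessary to the ring as PSMA7, had 1.62, 3.03 and 1.34 CPM in mimic libraries, against 2.38, 2.45 and 2.23 CPM in control libraries. PSMD2, which has such an overlap with EIF2B5, was well measured, at 242 ± 22.9 CPM with mimic, against 235 ± 7.52 CPM with control (SD, n = 3 each). The 20 tested members that overlap no row all had a mean of 78.1 CPM or more. The counting mode and strand setting are not given in the sources used here, so the part of the overlap in these low counts was not tested, and the levels of these 4 members are uncertain. Pseudogenes of some members, such as PSMC1P1, are rows of the table as well, and how reads shared with them were counted is not given either. Without the 4 low members, 31 of 35 members were below 0 and the median was −0.15.

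**Figure D5:**
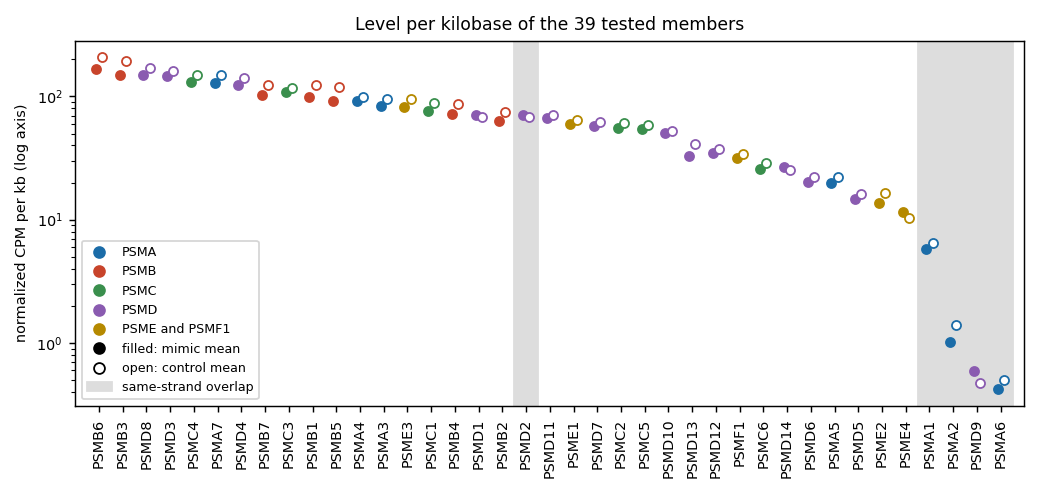
Level per kilobase of gene model of the 39 tested members on a log axis, filled points for the mimic mean and open points for the control mean, with grey behind members that overlap another protein-coding gene on the same strand. The 4 lowest members all lie on grey, and PSMB6 and PSMB3 are highest.

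Members with shorter gene models tended to have lower log2 fold changes, as genes did over the whole table. Across the 39 members, Spearman's rho between gene length and the fitted log2 fold change was 0.44, and across all 16233 tested genes it was 0.28, a description across genes that share libraries and are not independent. By date it was 0.26, 0.17 and 0.45 over members and 0.38, −0.08 and 0.14 over all genes. The median gene length was 1294 bases for PSMB and 3148 bases for all tested genes. The part of gene length in the lower PSMB levels was not tested.

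Genes that work with the proteasome gave no calls between mimic and control in any list described here, and 0.0% of all genes were called. Of its assembly chaperones 6 of 6 were below 0 (median −0.17), of its bound cofactors 5 of 8 (−0.06), of the shuttle factors that bring substrates 4 of 6 (−0.02), of p97 and its cofactors 4 of 9 (0.01), of the regulators of proteasome genes 7 of 8 (−0.13) and of the ubiquitin-activating and ligase genes 11 of 13 (−0.10). Over all tested genes 49.7% were below 0, with a median of 0.00. The interferon-induced list had a median of 0.20 with 13 of 16 above 0, the immunoproteasome one of −0.19, the HEK293 markers −0.01 and the markers of other cell types −0.36. PSMG3, a chaperone of the alpha ring, averaged 35.7 ± 4.61 CPM with mimic, against 42.8 ± 5.21 CPM with control (SD, n = 3 each; log2 fold change −0.26, SE 0.15, unadjusted p = 0.103). PSMG2, the partner of PSMG1 in alpha ring assembly, averaged 1.21 ± 0.238 CPM with mimic, against 1.68 ± 0.11 CPM with control. It was scarce, with 31, 42 and 23 counts in mimic libraries, against 45, 57 and 33 in control libraries. None of these chaperones passed the test. ADRM1, a ubiquitin receptor, averaged 29.7 ± 3.11 CPM with mimic, against 32.8 ± 3.75 CPM with control, and KIAA0368, which clamps core to regulatory particle, 117 ± 18.9 CPM with mimic, against 101 ± 11.97 CPM with control. Of the shuttle factors, RAD23B averaged 259 ± 19.9 CPM with mimic, against 281 ± 15.2 CPM with control and UBQLN2 90.4 ± 11.8 CPM with mimic, against 98.7 ± 6.93 CPM with control.

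Among the regulators, NFE2L1, the factor that raises proteasome genes together, had 329, 253 and 214 CPM in mimic libraries, against 218, 289 and 215 CPM in control libraries (log2 fold change 0.14, SE 0.18, unadjusted p = 0.453). Its highest value was the mimic library of 22 August, the groups overlapped, and it was the only regulator of the 8 with a value above 0. NFE2L2, the activator of antioxidant genes, averaged 116 ± 9.09 CPM with mimic, against 134 ± 10.2 CPM with control (SD, n = 3 each; log2 fold change −0.20). NFE2L3, its relative, averaged 18.0 ± 2.09 CPM with mimic, against 21.7 ± 2.83 CPM with control (log2 fold change −0.27). None of the 3 passed the test. UBE2S, a ubiquitin-conjugating enzyme, had a log2 fold change of −0.23, SKP1, a ligase adaptor, −0.24, UBXN1 −0.19 and UBXN7, both p97 cofactors, 0.19. Of the other lists, HLA-B had a log2 fold change of −0.27, OAS3 0.83, NEFM 0.29, KRT18 −0.32, MBP 0.22 and PIGR −1.31.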

How the data were processed

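RNA from Flag-Ago2 precipitates of HEK293 cells was sequenced in 6 libraries, 3 per group. The authors deposited raw counts per gene. Per the submitters' processing notes, the tools were STAR 2.5, HTSeq 0.6.1 and DESeq2, with hg19; the strand setting is not given in the sources used here. Every value column was matched to its sample by name (0 unmatched).

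The edgeR 4.0.16 quasi-likelihood F test (R 4.3.3) was run on these counts over all 6 libraries, with TMM scaling, no block, genes kept by filterByExpr (min.count 10, min.total.count 15) and Benjamini-Hochberg adjustment over 16233 tested genes at a threshold of 0.05. Each date was set against the mean of the others in a fit with date and mimic as terms. Levels are TMM-normalized CPM, log2 ratios by date use a prior count of 2, and each SE was obtained by dividing the log2 fold change by the root of F. Alternatives used DESeq2 1.42.0, limma-voom (limma 3.58.1), other scalings, no filter, libraries or dates left out, and AGO2 with the mitochondrial genes left out. The code was tested on simulated data. Python 3.11.15 with pandas 2.3.3 wrote the tables and matplotlib 3.10.9 the figures.

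The reported fit of mimic against control did not pair libraries. In the block alternative they were paired by the date that the labels give. After group means were removed, the libraries sharing a date correlated at 0.0466, 0.154 and 0.513 in date order. The common dispersion was 0.0292, and libraries correlated at 0.9796 or more. With 20233819 to 34408699 counts a library, counting error is of weight only for scarce members such as PSMD9.

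The members and lists were chosen with earlier results of these data known. Genes were named by a rule: of each role group the lowest p and the highest CPM, the 4 largest differences for 22 August, the interferon-linked subunits, and the 2 lowest p of each other list; further members are named to account for all. One list and its genes are left out of this text. Sequences come from RefSeq GRCh38.p14, and coordinates of genes are those of hg19 in the deposited table. A search for seed matches in transcripts was not run.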

Additional observations from a re-analysis of the deposited data

Results flagged for a closer look

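In 4 role groups the median log2 ratio of mimic over control lay on opposite sides of 0 on different dates. For PSMA it was −0.62 on 22 August, 0.28 on 5 September and −0.14 on 18 September. For PSMC it was −0.38, 0.055 and −0.18 on the same dates, for PSMD −0.20, 0.0114 and −0.092, and for PSME with PSMF1 −0.19, 0.15 and −0.16. In each of these groups the date above 0 was 5 September, on which the summed level of all members was 5196 CPM in the mimic library, against 5125 CPM in the control library. The control library of that date also held 23319 counts of HBB. The difference between dates was not tested, since each date has 1 library per group, and the part of that library's other transcripts was not tested.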

How the results depend on the processing

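No member was called between mimic and control under any alternative run: 0 with the replicate block, in which 0 genes were called as well. Over all genes, 20 were called with no filter on low counts, 5 by DESeq2 and 11 by DESeq2 with the replicate block, against 0 in the reported fit and 0 without any 1 library. All role medians moved by less than the spread of the date medians. That spread was wider than the median itself for PSMA (SD 0.45), PSMC (0.22) and PSME with PSMF1 (0.18). A median of these groups could thus change sign and still pass this check. The PSMA median ran from −0.37 to 0.04. PSMC ran from −0.26 to −0.07, PSMD from −0.19 to −0.02 and PSME with PSMF1 from −0.25 to −0.03. The PSMB median ran from −0.43 to −0.21 and stayed below 0 throughout. The replicate block raised the members with an unadjusted p under 0.05 to 6, from the reported 3, and turned the log2 fold change of PSMB9 to 0.0087. PSMB9 also turned to 0.16 in limma-voom, to 0.047 in DESeq2 with the replicate block and to 0.21 without 22 August. Without that date PSMA4 turned to 0.11, PSMC6 to 0.096 and PSME1 to 0.0185. Without 1 library at a time the log2 fold changes ran from −0.49 to 0.61 for PSMB9, from −0.28 to 0.0228 for PSMA4, from −0.55 to 0.0699 for PSMB10, from −0.57 to 0.39 for PSMB8, from −0.22 to 0.0151 for PSMC3, from −0.32 to 0.0566 for PSMC6 and from −0.34 to 0.0861 for PSME1; the log2 difference for 22 August ran from −0.61 to 1.33 for PSMB8 and from −0.12 to 0.31 for PSME2. PSME2 stood at −0.0101 for 22 August with total counts only, a scaling that moved the median of all genes to −0.11 for 22 August and 0.11 for 18 September. Genes called for 22 August numbered 55, against 240 with no filter, 115 by DESeq2 and 54 to 1363 without 1 library. For 5 September 0 were called, against 204 with no filter, 64 by DESeq2, 14 without the mimic term and 9 to 2344 without 1 library. For 18 September 8 were called, against 494 with no filter, 155 by DESeq2, 20 without AGO2 and mitochondrial genes, 41 without the mimic term and 3 to 3748 without 1 library. Members called without 1 library ran from 0 to 1 for 22 August, 0 to 14 for 5 September and 0 to 19 for 18 September. The cause of these moves was not tested; fits of dates without 1 library have 1 residual degree of freedom. Depth limits scarce genes such as PSMB8, PSMB9, PSMB10 and PSMD9.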
